A study of Mus musculus with 8 samples.

Results

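The genes described here are the VEGF family ligands Vegfa, Vegfb, Vegfc, Vegfd and Pgf, the receptor tyrosine kinases Flt1, Kdr and Flt4, and the neuropilin co-receptors Nrp1 and Nrp2. They were found by symbol, and 10 of the 24848 gene rows in the deposited tables were members. All 10 passed edgeR's filter on low counts, which left 13569 genes. RNA sequencing covered ischemic tibialis anterior muscle, from the front of the lower leg, in 4 libraries of mice fed praliciguat and 4 of mice on placebo chow. Praliciguat is a stimulator of soluble guanylate cyclase, which produces cGMP when it binds nitric oxide. The praliciguat chow held 75 ppm, set to reach the peak plasma level of 10 mg/kg/day by mouth, and the placebo chow held none. Both diets started on day -3 and ran for 31 days.

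Both groups were male Leprdb/db mice, in which loss of leptin receptor function leads to obesity and diabetes. All had undergone hind limb ischemia surgery, with tissue collected on day 28 after it. Healthy, unoperated or non-diabetic muscle was not analysed here, so neither diabetes nor ischemia is a comparison. The sources used here do not give age. Since the labels do not say whether libraries came from different animals, the p-values reflect library-to-library spread, which may be technical.

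VEGF signalling is the main growth pathway of blood and lymph vessels. Secreted ligands bind receptor tyrosine kinases on endothelial cells, and neuropilins hold ligand beside the kinase. Muscle fibres are a known source of VEGF-A, which drives capillary growth through KDR (VEGFR2), while FLT1 (VEGFR1) binds VEGF-A, VEGF-B and placental growth factor and can act as a sink for ligand. VEGF-C and VEGF-D act mainly through FLT4 (VEGFR3), the receptor best known from lymphatic vessels.

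To place the genes, RefSeq promoter sequence on GRCm38.p6, the assembly of mm10, was read for all 10. The 120 bases before a transcript start listed by RefSeq are shown for Vegfa, Pgf and Flt4, whose groups did not overlap, and for Flt1 and Kdr, whose levels split the praliciguat libraries. Capitals mark GGGCGG on either strand, the GC box bound by SP1.
Vegfa: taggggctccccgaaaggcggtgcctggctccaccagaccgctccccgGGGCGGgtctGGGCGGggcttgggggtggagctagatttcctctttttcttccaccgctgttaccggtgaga
Pgf: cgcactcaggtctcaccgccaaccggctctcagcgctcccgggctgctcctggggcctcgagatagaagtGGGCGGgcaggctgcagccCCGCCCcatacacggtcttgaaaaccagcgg
Flt4: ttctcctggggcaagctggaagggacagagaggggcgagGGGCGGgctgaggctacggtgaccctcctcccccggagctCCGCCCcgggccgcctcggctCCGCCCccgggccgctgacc
Flt1: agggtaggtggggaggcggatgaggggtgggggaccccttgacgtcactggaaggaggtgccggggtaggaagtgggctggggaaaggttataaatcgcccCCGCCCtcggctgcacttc
Kdr: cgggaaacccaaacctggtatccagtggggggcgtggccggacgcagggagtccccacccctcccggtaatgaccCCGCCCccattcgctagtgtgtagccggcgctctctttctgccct
These stretches lie at chr17:46032378-46032497 (minus strand) for Vegfa, chr12:85177314-85177433 (minus) for Pgf, chr11:49609559-49609678 (plus) for Flt4, chr5:147726012-147726131 (minus) for Flt1 and chr5:75978456-75978575 (minus) for Kdr. For Pgf, Flt1 and Kdr the RefSeq gene span given further on reaches beyond this start, so the stretch shown lies inside that span. Within 250 bases before each listed start, GGGCGG was found for 9 of the 10 genes, Vegfd being the one without, and at 10 of their 12 annotated starts. Of all 32851 promoters, 32.7% held it. The core hypoxia response motif ACGTG was searched on both strands of the same 250 bases. It was found at 1 of the 12 starts, the second start of Vegfa, whose stretch is not shown, against 16.6% of all promoters. Sequence further upstream was not searched, so sites there would be missed. The ETS motif CCGGAA was found at 1 start, that of Kdr, against 3952 of all 32851 promoters. Matches of different motifs shared bases at 0 of the 12 starts. These matches are a description of the letters only.

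The 8 libraries held 21099764 to 31896205 expected counts, and levels are given in CPM, counts relative to the scaled library total. Muscle identity was checked with 7 fibre markers, among them Acta1 and Ckm, which were all detected and summed to 93404 to 114219 CPM with praliciguat and 95941 to 109593 CPM in placebo. Title numbers of the samples fall in a lower and a higher block, called the lower and upper run here, with 2 libraries of each group in both. The labels do not say what these runs are. Praliciguat replicates 1 and 2 and placebo replicates 1 and 2 belong to the lower run. Praliciguat replicate 3 stood apart by its fibroblast markers, which summed to 4765 CPM, against 649 to 1592 CPM in the other praliciguat libraries and 1137 to 2251.5 CPM in placebo. Its macrophage markers summed to 401 CPM, against 44.0 to 98.7 CPM in the other praliciguat libraries and 56.3 to 151 CPM in placebo. Of the fibroblast markers 5 of 6 and of the macrophage markers 7 of 7 had fold changes above 0, and none passed the adjusted p in edgeR or DESeq2.

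The comparison of praliciguat with placebo asked whether transcripts of the VEGF system differ in ischemic muscle with the drug. Praliciguat was below placebo in 9 of the 10 genes, and the median log2 fold change was -0.31. Over all genes tested, 44.8% lay below 0 and the median was 0.02. In 3 of the 10, Vegfa, Pgf and Flt4, every praliciguat library lay below every placebo library, as was the case for 2.54% of all genes tested. At an unadjusted p under 0.05 in edgeR, 4 of the 10 were lower (Flt4, Vegfa, Pgf and Nrp2), against 3.78% of all genes. None of the 10 passed an adjusted p of 0.05 in edgeR's quasi-likelihood test, and neither did any of the 13569 genes (0.0%). DESeq2 called Flt4 lower (adjusted p = 0.0222) among 113 lower genes, 0.809% of those it tested. The 10 genes were chosen with earlier results of these data known, so these shares are descriptions.

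**Figure D1:**
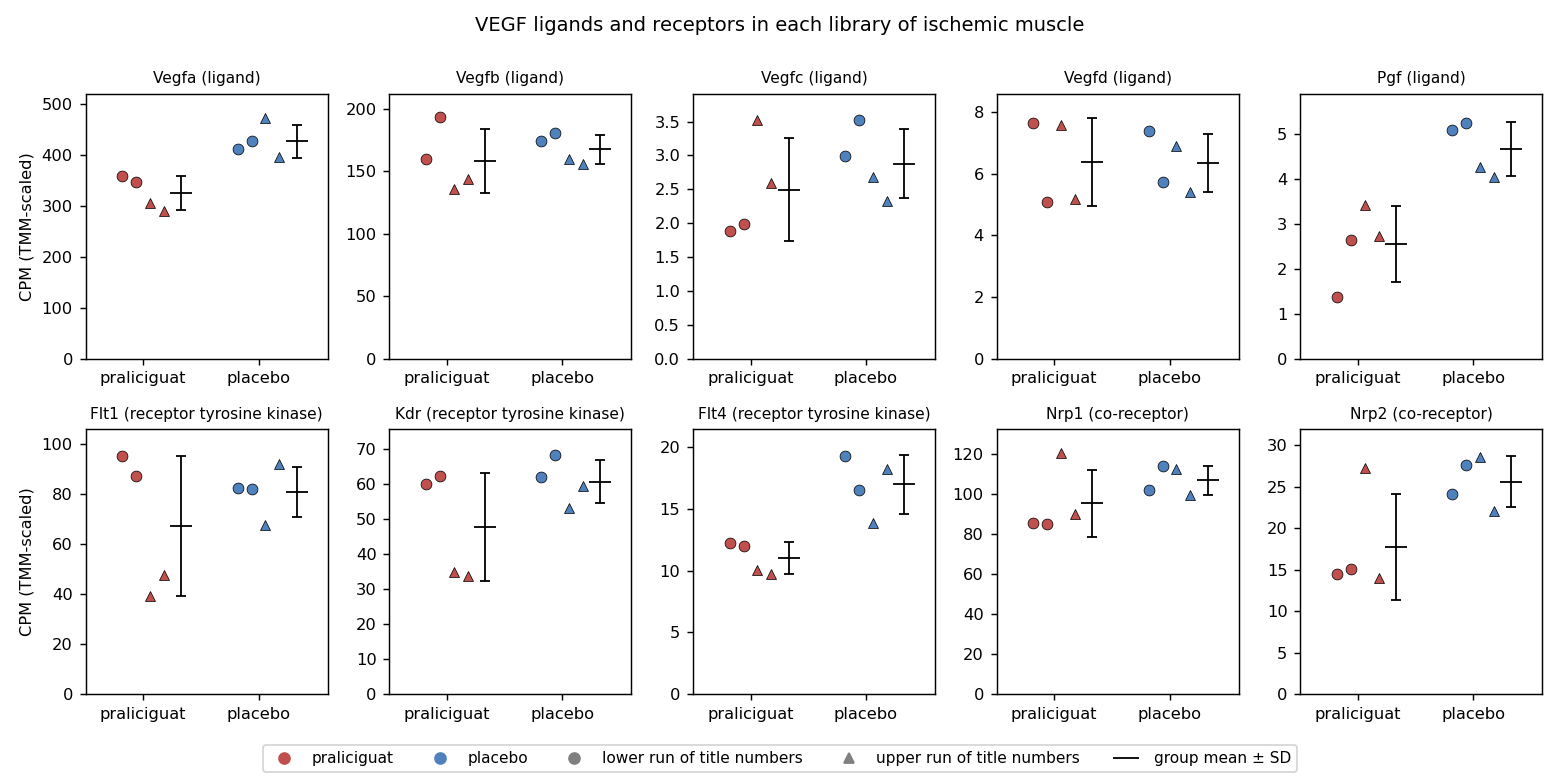
Level of each gene in CPM (linear axis from 0) in the 4 praliciguat and 4 placebo libraries, with circles for the lower and triangles for the upper run of title numbers, and bars for the group mean ± SD. Vegfa, Pgf and Flt4 separate the groups, Flt1 and Kdr split the praliciguat libraries by run, and praliciguat replicate 3 stands above its group in Nrp1 and Nrp2.

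**Figure D2:**
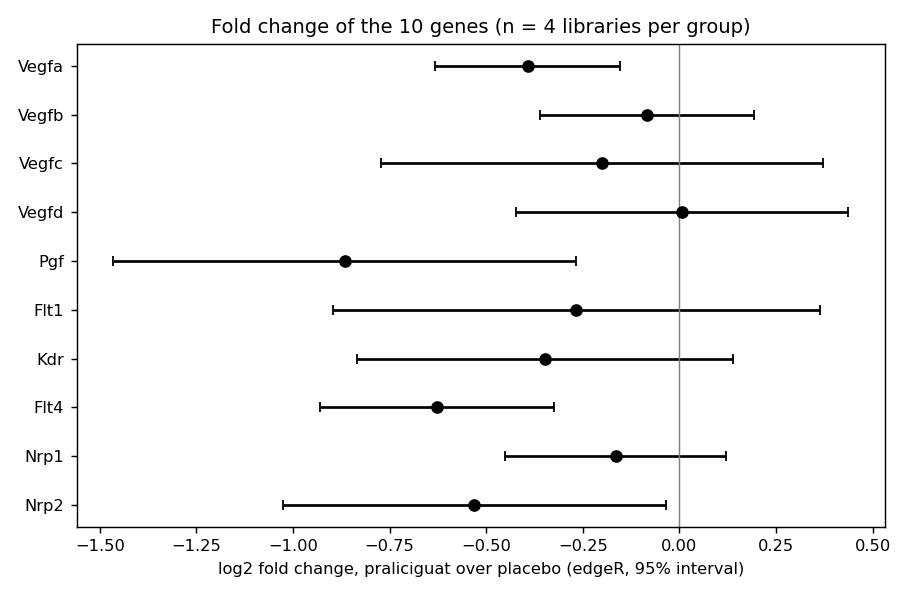
Log2 fold change of praliciguat over placebo for each gene, with the 95% interval from edgeR (n = 4 libraries per group). The intervals of Vegfa, Pgf, Flt4 and Nrp2 lie below 0 before any adjustment for the number of genes tested, and Vegfd is centred at 0.01.

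Among the ligands, Vegfa, the main endothelial growth factor, was the most heavily counted, with 8169 to 13755 reads per library. It had 359, 347, 305 and 289.9 CPM in praliciguat replicates 1 to 4, against 412, 428, 472 and 396 CPM in placebo replicates 1 to 4. The groups did not overlap, and the 2 upper-run praliciguat libraries were the lowest. The log2 fold change was -0.39 ± 0.11 (SE), which is a level 23.9% lower with a 95% interval of 10.1% to 35.5%. The adjusted p was 0.399 in edgeR and 0.0537 in DESeq2. When DESeq2 was given only the genes that edgeR tested, which was tried after seeing the data, Vegfa was called lower (adjusted p = 0.0318), as were 0.867% of the genes in that test. The call of Vegfa thus differed with the tool and with the genes entered. In RefSeq on GRCm38.p6, which gave the gene positions here and below, Vegfa lies on chromosome 17 from 46016993 to 46032377.

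Pgf encodes placental growth factor, a ligand of FLT1 that is known for its part in collateral artery growth. It was low, with 35 to 153 reads per library. Praliciguat replicates 1 to 4 had 1.37, 2.64, 3.41 and 2.73 CPM, against 5.08, 5.24, 4.25 and 4.03 CPM in placebo. The highest praliciguat library lay below the lowest placebo library, and replicate 1 was the lowest of its group. The log2 fold change was -0.87 ± 0.27 (SE; 95% interval -1.46 to -0.27), the furthest from 0 of the 10 genes, with an adjusted p of 0.515 in edgeR and 0.131 in DESeq2. Without praliciguat replicate 1 the log2 fold change was -0.66 for Pgf and -0.68 for Flt4, so this rank did not hold there. The within-run differences of Pgf in mean log2 CPM were -1.40 in the lower and -0.43 in the upper run. Pgf lies on chromosome 12 from 85166637 to 85177785.

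The remaining ligands overlapped between the groups. Vegfb, which binds FLT1 and NRP1 and is known for its link to fatty acid handling in muscle and heart, ranged from 135 to 193 CPM with praliciguat and from 156 to 180.3 CPM in placebo. Its log2 fold change was -0.08 ± 0.12 (SE), and the 95% interval of -0.36 to 0.19 leaves room for modest differences in either direction. Vegfc and Vegfd, the lymphatic ligands, were scarce. Vegfc ranged from 1.88 to 3.53 CPM with praliciguat and from 2.32 to 3.53 CPM in placebo, and Vegfd from 5.09 to 7.65 CPM with praliciguat and from 5.41 to 7.39 CPM in placebo. In both genes the groups overlapped across most of their range. Their log2 fold changes were -0.20 ± 0.25 (95% interval -0.77 to 0.37) and 0.01 ± 0.19 (-0.42 to 0.44). With 1 library left out, Vegfb ranged from -0.19 (without praliciguat replicate 2) to -0.014 (without praliciguat replicate 3), and Vegfc from -0.42 (without praliciguat replicate 3) to -0.087 (without placebo replicate 2). The sign of Vegfd turned under 9 of its 23 alternative settings. Vegfb lies on chromosome 19 from 6982472 to 6987651, Vegfc on chromosome 8 from 54077532 to 54186454 and Vegfd on chromosome X from 164373522 to 164402650.

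Of the receptors, Flt4 had the clearest separation. It stood at 12.3, 12.01, 10.03 and 9.76 CPM in praliciguat replicates 1 to 4, against 19.3, 16.5, 13.9 and 18.3 CPM in placebo. No praliciguat library reached the lowest placebo library. The log2 fold change was -0.63 ± 0.13 (SE), a level 35.2% lower with a 95% interval of 20.1% to 47.5%, and the adjusted p was 0.269 in edgeR and 0.0222 in DESeq2. With any 1 library left out, the value stayed between -0.72 and -0.55 and the edgeR adjusted p between 0.192 and 0.727. The within-run differences in mean log2 CPM were -0.56 in the lower and -0.68 in the upper run. Flt4 lies on chromosome 11 from 49609679 to 49652739.

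FLT4 is made by lymphatic endothelium and also by some blood vessel endothelium. The 6 lymphatic markers, among them Prox1 and Lyve1, all had fold changes below 0 (median log2 fold change -0.47). Their summed level was 13.1 to 28.7 CPM with praliciguat and 23.4 to 40.1 CPM in placebo, so the groups overlapped. Of these 6 genes 0 passed the adjusted p in edgeR or DESeq2. Their part in the value of Flt4 was not tested. In bulk muscle, fewer cells of a type and less RNA per cell cannot be told apart, here and for every gene below.

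Flt1, the high-affinity VEGF-A receptor, and Kdr, the main signalling receptor, divided the praliciguat libraries. Flt1 had 95.1, 87.2, 39.2 and 47.7 CPM in praliciguat replicates 1 to 4, against 82.3, 81.8, 67.6 and 92.0 CPM in placebo. Kdr had 60.0, 62.3, 34.9 and 33.7 CPM with praliciguat, against 62.0, 68.2, 53.2 and 59.5 CPM in placebo. In the lower run, both praliciguat libraries were above both placebo libraries for Flt1 and overlapped them for Kdr. In the upper run, both praliciguat libraries were below both placebo libraries for either gene. Over all 8 libraries the log2 fold changes were -0.27 ± 0.28 (95% interval -0.90 to 0.36) for Flt1 and -0.35 ± 0.22 (-0.83 to 0.14) for Kdr. With praliciguat replicates 3 and 4 left out, which was chosen after seeing the data, they were 0.17 for Flt1 and 0.01 for Kdr. With any 1 library left out, Flt1 ranged from -0.48 (without praliciguat replicate 1) to -0.077 (without praliciguat replicate 3) and Kdr from -0.50 (without praliciguat replicate 2) to -0.21 (without praliciguat replicate 4). Both genes lie on chromosome 5, Flt1 from 147561604 to 147726438 and Kdr from 75932827 to 75979072.

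Whether the praliciguat effect differed between the runs was tested in a fit with group, run and their interaction, also chosen after seeing the data. For Flt1 the effect in the upper run minus that in the lower run was -1.03 ± 0.23 on the log2 scale (SE; unadjusted p = 0.00198, edgeR adjusted p = 0.168). For Kdr it was -0.62 ± 0.16 (unadjusted p = 0.00363, edgeR adjusted p = 0.188), and for Vegfc 1.05 ± 0.40 (unadjusted p = 0.0302, edgeR adjusted p = 0.266). At an unadjusted p under 0.05 there were 3 of the 10 genes, against 16.3% of all genes. None of the 10 passed the adjusted p, and 2 of 13569 genes did (0.0147%). Each run holds 2 libraries per group, so the interaction rests on pairs. With the run as a block in the main comparison, 0 of the 10 passed the adjusted p, with Flt4 at 0.155 and Vegfa at 0.318 in edgeR.

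**Figure D3:**
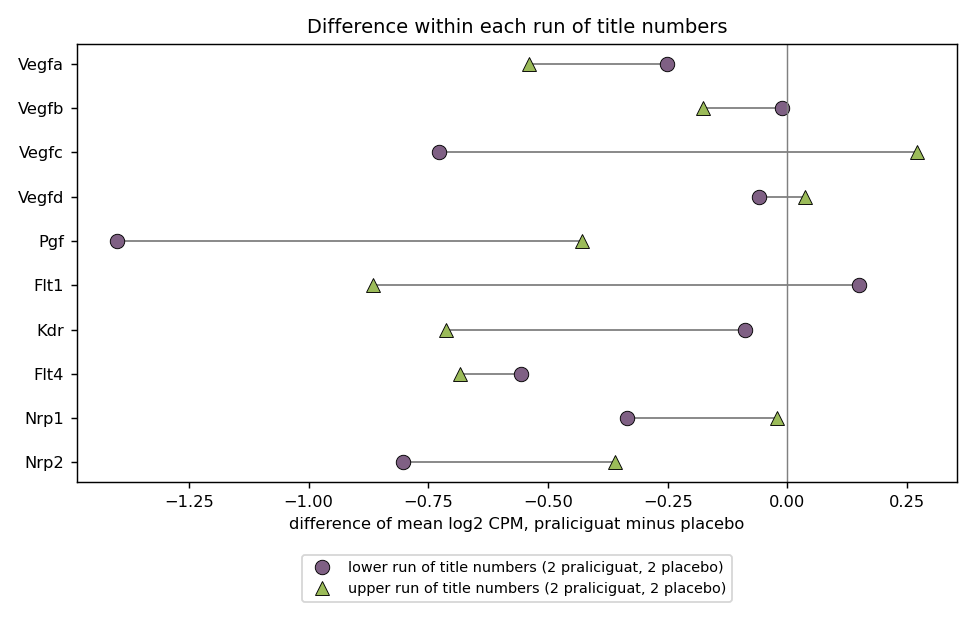
Difference in mean log2 CPM, praliciguat minus placebo, within the lower run (circles) and the upper run (triangles) of title numbers, with 2 libraries per group in each. Vegfa (-0.25 in the lower and -0.54 in the upper run), Vegfb, Pgf, Kdr, Flt4, Nrp1 and Nrp2 lie below 0 in both runs. Vegfb in the lower run (-0.01) and Nrp1 in the upper run (-0.02) come close to 0. Flt1 stands at 0.15 in the lower and -0.87 in the upper run, Vegfc at -0.73 and 0.27 and Vegfd at -0.06 and 0.04.

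The neuropilins were marked by praliciguat replicate 3. Nrp2, the neuropilin of veins and lymphatics that also binds class 3 semaphorins, had 14.5, 15.04, 27.3 and 14.02 CPM in praliciguat replicates 1 to 4, against 24.1, 27.7, 28.6 and 22.1 CPM in placebo. Nrp1, the co-receptor of KDR in arteries and capillaries, had 85.8, 85.3, 121 and 90.2 CPM with praliciguat, against 102, 114, 113 and 99.6 CPM in placebo. For both genes, 3 praliciguat libraries lay below all placebo libraries and replicate 3 lay among or above them. The log2 fold changes were -0.53 ± 0.22 (95% interval -1.03 to -0.04) for Nrp2 and -0.17 ± 0.13 (-0.45 to 0.12) for Nrp1. Without praliciguat replicate 3 they were -0.82 for Nrp2 and -0.30 for Nrp1, with edgeR adjusted p of 0.0591 and 0.354. In that setting 5 of the 10 genes had no overlap between groups, against 5.9% of all genes on the lower side. Nrp1 and Nrp2 joined Vegfa, Pgf and Flt4 there. This follows from the values above, as replicate 3 alone was not below all placebo libraries. Without praliciguat replicates 3 and 4, edgeR called Nrp2 lower (log2 fold change -0.79, adjusted p = 0.0369), among 0.571% of all genes, in a fit where the praliciguat group comes from 1 run and placebo from both. Neuropilins are also made by fibroblasts and macrophages, whose markers were at their highest in replicate 3; their part in these values was not tested. Nrp1 lies on chromosome 8 from 128358591 to 128505476 and Nrp2 on chromosome 1 from 62703317 to 62818692.

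Compared in TPM, which divides each count by transcript length, the 10 genes kept the same order of mean level in both groups. Vegfb was first, at 265 ± 32.3 TPM with praliciguat and 289.9 ± 11.1 TPM in placebo, followed by Vegfa at 189 ± 12.7 TPM with praliciguat and 256 ± 24.1 TPM in placebo (SD, n = 4 each, here and below). Vegfb and Vegfa overlapped in placebo and did not overlap with praliciguat. Nrp1 came next at 29.4 ± 6.79 TPM with praliciguat and 33.6 ± 2.31 TPM in placebo. Flt1 followed at 19.1 ± 7.25 TPM with praliciguat and 23.9 ± 2.92 TPM in placebo, and Kdr at 15.7 ± 4.51 TPM with praliciguat and 20.7 ± 1.30 TPM in placebo. Flt1 and Kdr overlapped in both groups. Vegfd, Nrp2, Pgf, Flt4 and Vegfc made up the lower end, none above 9.18 TPM in any library, with overlapping neighbours in placebo from Vegfd down to Flt4. Vegfc was last, at 2.60 ± 0.926 TPM with praliciguat and 3.03 ± 0.432 TPM in placebo.

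**Figure D4:**
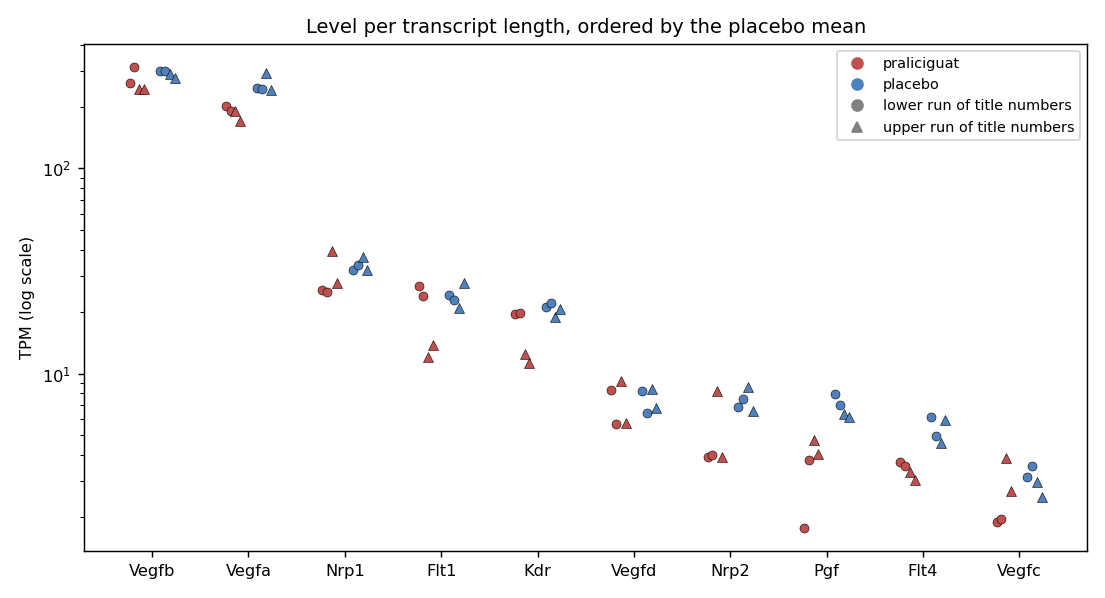
Level of each gene in TPM (log axis) per library, ordered by the placebo mean, with praliciguat left of placebo for each gene and symbols for the runs of title numbers. The lowest Vegfa library stands at 171 TPM, above the highest library of the other 8 genes, 39.4 TPM for Nrp1.

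The mix of ligands was nearly all Vegfa and Vegfb. Vegfa made up 42.5, 37.2, 42.2 and 40.01% of the summed ligand TPM in praliciguat replicates 1 to 4, against 43.6, 43.7, 48.8 and 45.2% in placebo. Vegfb made up 55.0, 60.6, 53.9 and 57.1% with praliciguat, against 52.9, 53.2, 48.2 and 51.9% in placebo. Both shares separated the groups, with Vegfa at a smaller and Vegfb at a larger part with praliciguat, and both did so in the same direction within each run. Vegfa and Vegfb make up nearly all of the sum, so their shares mirror each other and are not separate results. The mean level of Vegfb itself was not higher with praliciguat, at 265 TPM against 289.9 TPM in placebo. Pgf made up 0.775 ± 0.298% with praliciguat and 1.22 ± 0.147% in placebo (SD, n = 4 each). The Flt1 to Kdr ratio was 1.19 ± 0.165 with praliciguat and 1.15 ± 0.130 in placebo, and the groups overlapped. The Vegfa to Kdr ratio was 12.7 ± 3.06 with praliciguat and 12.4 ± 1.995 in placebo, also with overlap. Praliciguat minus placebo, this ratio differed by -1.38 in the lower run and by 1.80 in the upper run, so its direction turned between runs. These shares and ratios combine members, so no test is given for them.

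Endothelial cells carry the receptors, so their markers are given beside them. All 18 endothelial markers had fold changes below 0, with a median of -0.35, and 0 passed the adjusted p in edgeR or DESeq2. At an unadjusted p under 0.05 in edgeR there were 9 of the 18, against 3.78% of all genes on the lower side, and in 4 of the 18 every praliciguat library lay below every placebo library, against 2.54% of all genes. Their summed level was 796, 725, 678 and 549 CPM in praliciguat replicates 1 to 4, against 1015, 869, 811 and 761 CPM in placebo, which overlapped at a single pair of libraries. Pecam1 and Cdh5, junction proteins of endothelium, were at -0.32 ± 0.14 and -0.38 ± 0.14 on the log2 fold change scale (SE). In both groups, these sums were lower in the upper-run libraries than in the lower-run libraries. The difference between the groups was alike in both runs: the mean log2 CPM of the 18 markers differed by -0.36 in the lower and -0.29 in the upper run. The part of these markers in the receptor values was not tested.

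Relative to the mean log2 CPM of those 18 markers, Flt1 differed by -0.03 and Kdr by -0.07 over all 8 libraries, with overlapping groups. Within the runs, Flt1 differed by 0.51 in the lower run and by -0.57 in the upper run, and Kdr by 0.27 and -0.42. Flt4 stood at -1.36 to -1.09 with praliciguat and -1.08 to -0.59 in placebo on the same scale, a mean difference of -0.29. Nrp1 differed by a mean of 0.15 and Nrp2 by -0.26, with overlapping groups. Of the 9 smooth muscle and pericyte markers, 8 had fold changes below 0 (median -0.19). Their summed level was 1351, 1400.2, 969 and 999 CPM in praliciguat replicates 1 to 4, against 1601, 1332, 1144 and 1361 CPM in placebo. This sum also divided the praliciguat libraries by run.

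**Figure D5:**
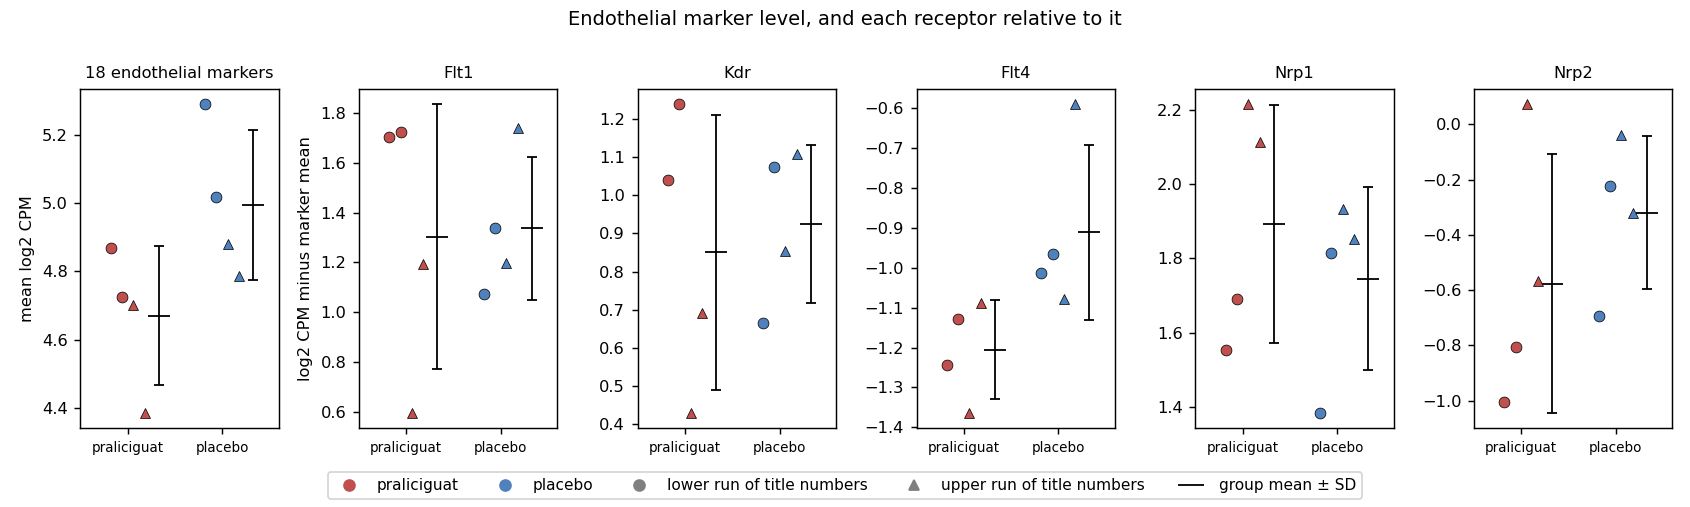
Mean log2 CPM of the 18 endothelial markers (left), and log2 CPM of each receptor minus that mean, per library, with bars for the group mean ± SD and symbols for the runs. Flt4 relative to the markers lies lower in every praliciguat library than in any placebo library, by a narrow gap, and Flt1 is lowest in praliciguat replicate 3.

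Alternative transcripts can change what a ligand or receptor does, since short VEGF-A forms diffuse and long forms stay on the matrix. RSEM reports for each gene the mean length of its transcripts weighted by their estimated abundance, so a shift in the mix can appear as a shift in length. A switch between transcripts of like length, or switches that offset each other, would leave this mean unchanged. An unchanged length therefore does not show an unchanged mix. Vegfa, with 10 RefSeq transcripts in the tables, had a length of 3192 ± 27.4 bases with praliciguat and 3189 ± 26.3 bases in placebo (SD, n = 4 each). The log2 ratio of lengths was 0.0013 ± 0.0082 (SE; limma adjusted p = 1.0), with a 95% interval of -0.018 to 0.021. Pgf had the widest interval, with 1438 ± 87.9 bases with praliciguat and 1399 ± 55.9 bases in placebo and a log2 ratio of 0.038 ± 0.050. None of the 6 members with more than 1 transcript passed, nor did any of the 5551 genes tested (0.0%; 254, or 4.58%, at an unadjusted p under 0.05). Vegfc, Flt1, Kdr and Flt4 have a single transcript in the tables, so the soluble form of FLT1, a known decoy for VEGF-A, could not be read apart from the full receptor.

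The lists of other VEGF pathway genes numbered 5, with 107 genes in all, and edgeR called 0 of them (0.0% of all genes). Among 19 tested partners and regulators of the receptors, 12 lay below 0 (median log2 fold change -0.12). This median was -0.38 without praliciguat replicate 3 and -0.036 without praliciguat replicate 2. Ptprb, the endothelial phosphatase that acts on KDR and TIE2, had 94.5 ± 11.7 CPM with praliciguat and 129.7 ± 11.3 CPM in placebo (log2 fold change -0.46 ± 0.11 SE). Ctgf, a matrix protein that can bind VEGF-A, had 29.2 ± 16.6 CPM with praliciguat and 67.9 ± 16.1 CPM in placebo (-1.22 ± 0.39). In both genes the groups did not overlap. The within-run differences of Ctgf were -2.14 in the lower and -0.61 in the upper run.

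Of 12 semaphorins and plexins, which share neuropilins with the VEGF system, 9 lay below 0 (median -0.28; -0.47 without praliciguat replicate 3 and -0.17 without praliciguat replicate 2). Sema3f, a ligand of NRP2 known to repel vessels and axons, had 9.13 ± 1.53 CPM with praliciguat and 13.96 ± 1.55 CPM in placebo, without overlap (log2 fold change -0.61 ± 0.15 SE). DESeq2 called Sema3f lower (adjusted p = 0.0343), while edgeR gave it 0.317. Plxna2, a plexin that pairs with neuropilins, had a log2 fold change of -0.51 ± 0.17, with within-run differences of -0.12 in the lower and -0.90 in the upper run.

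Of the 40 tested genes of cytoplasmic signalling downstream of the receptors, 10 lay below 0 and 30 above (median 0.07; 0.038 to 0.099 with 1 library left out). The 2 of lowest p were both below 0. Nos3, the endothelial nitric oxide synthase that makes the activator of the drug's target enzyme, had 15.5, 17.1, 13.1 and 17.2 CPM in praliciguat replicates 1 to 4, against 24.5, 21.4, 22.6 and 27.5 CPM in placebo. Sphk1, a sphingosine kinase activated by VEGF-A, had 1.26 ± 0.438 CPM with praliciguat and 3.59 ± 1.11 CPM in placebo (log2 fold change -1.502 ± 0.32 SE). DESeq2 called both lower (adjusted p = 0.00926 for Nos3 and 0.00328 for Sphk1), and edgeR gave them 0.212 and 0.265.

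Among 18 transcripts known to be induced by VEGF in endothelial cells, 14 lay below 0 (median -0.33), against 44.8% of all genes. Their summed level overlapped, at 739 to 1035 CPM with praliciguat and 759 to 1138 CPM in placebo. Bulk muscle does not show which cells made these transcripts. Apln, the vessel peptide apelin, had 2.51, 2.49, 5.45 and 4.40 CPM in praliciguat replicates 1 to 4, against 7.31, 10.3, 17.3 and 7.36 CPM in placebo. The groups were apart, with a log2 fold change of -1.504 ± 0.36 (SE), called lower by DESeq2 (adjusted p = 0.00607) and not by edgeR (adjusted p = 0.341). Dusp1, a phosphatase that switches off MAP kinases, lay the other way in every library, at 180.1 ± 29.0 CPM with praliciguat and 131 ± 15.4 CPM in placebo (log2 fold change 0.46 ± 0.13, edgeR adjusted p = 0.473). Of 15 regulators of Vegfa transcription, 6 lay below 0 (median 0.04; -0.037 without praliciguat replicate 2). Their summed level was 1924, 1910, 1343 and 1392 CPM in praliciguat replicates 1 to 4, against 1499, 1592, 1616 and 1844 CPM in placebo. Egln3, an oxygen-sensing prolyl hydroxylase that is itself induced by hypoxia, had 110.2, 58.7, 35.2 and 40.6 CPM with praliciguat, against 85.3, 84.5, 131 and 145 CPM in placebo, and Arnt, the partner of the HIF proteins, had a log2 fold change of 0.23 ± 0.11.

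For likeness of pattern, 7780 genes of at least 10 CPM were ranked by Pearson's r of log2 CPM after each group's mean was subtracted, over the 8 libraries. The nearest to Vegfa were Lrrc30 (r = 0.94), Hadh (0.93), an enzyme of fatty acid oxidation, and Smad2 (0.92). Those nearest to Flt1 were Cd24a, Zeb1 and Rab12 (r = 0.99 or above), and those nearest to Kdr were Acot2 (0.99), Mast2 (0.98) and Mlycd (0.98). These values were the highest of many, and the libraries share the split of the praliciguat group by run, so they are given as a description with no test.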

How the data were processed

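RNA was taken from snap-frozen muscle with Tri Reagent and made into stranded mRNA libraries (KAPA), per the labels' protocols. Per the submitters' processing notes, the tools were RSEM 1.2.28, STAR 2.5.3a, Trimmomatic and FastQC, and the build was mm10. The deposited expected counts are RSEM's estimated reads per gene, in which reads shared between genes are divided by a model; 0.765% to 0.930% of genes per library were not whole (tolerance 0.001). The deposited TPM column, per the file headers, is scaled by length, and was used for levels between genes. Deposited FPKM values were not used. The deposited length and effective length, per the file headers, are in bases. The sources used here do not give the strand setting, so reads of antisense partners could not be told apart.

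Rounded counts went into edgeR 4.0.16 under R 4.3.3 (TMM scaling after filterByExpr, robust quasi-likelihood F test, two-sided, Benjamini-Hochberg over all 13569 genes, threshold 0.05). Fold changes are praliciguat over placebo; CPM use TMM-scaled library sizes; log2 CPM use a prior count of 2. Lengths were tested with limma 3.58.1. DESeq2 1.42.0 on all genes with a count, limma-voom, other scalings, filters, TPM, the title run as a block and each library left out were alternatives. The edgeR and limma tests were checked on simulated data, and DESeq2 was not. The changes simulated for edgeR were larger than the main fold change of any member, so the check does not cover changes of that size. The limit for a count of 0, set at 3 counts, was 0.0875 to 0.134 CPM by library and covers counting error only. Replicates were numbered in accession order.

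The members and lists were chosen with earlier results of these data known. Named genes were the 10 members, the listed genes past the threshold or else the 2 of lowest p per pathway list, Pecam1 and Cdh5, and the 3 genes nearest in pattern to Vegfa, Flt1 and Kdr. Marker lists covered endothelial, lymphatic, smooth muscle, macrophage, fibroblast, muscle fibre, satellite, fat, red blood, Schwann and skin cells.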

Additional observations from a re-analysis of the deposited data

Results flagged for a closer look

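Each group of 4 libraries was checked for a library far from the others, by the gap to its nearest neighbour over the range of the group (Dixon's test, 95% critical value). Chance flags about 1 in 20 groups, and 50 were checked. Nrp1 in praliciguat replicate 3 stood at 121 CPM, with a gap of 0.861 of the range, and Nrp2 in the same library at 27.3 CPM, with a gap of 0.923. That library also had the highest fibroblast and macrophage marker sums, 4765 and 401 CPM, and their part was not tested. Placebo replicate 3 was flagged for a Vegfa to Kdr TPM ratio of 15.4 (gap 0.846) and a Nrp1 to Kdr TPM ratio of 1.95 (gap 0.945); it had the highest Vegfa of its group, 291 TPM against 239.9 to 247 TPM in the other placebo libraries, the highest Nrp1, 36.8 TPM against 31.9 to 33.8 TPM, and the lowest Kdr, 18.9 TPM against 20.7 to 22.0 TPM.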

How the results depend on the processing

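No member was called higher in any setting. Against 0 members called lower by edgeR, DESeq2 called 1 (Flt4), DESeq2 on the genes edgeR tested called 2 (Flt4 and Vegfa), and edgeR without praliciguat replicates 3 and 4 called 1 (Nrp2). Over all genes, where edgeR called 0, DESeq2 called 13 higher and 113 lower, DESeq2 on edgeR's genes 15 and 115, and the fit without praliciguat replicates 3 and 4 called 6 and 79. These settings without 2 libraries or on edgeR's genes were chosen after seeing the data. On the lower side limma-voom called 2, the title run as a block 3, an adjusted p under 0.1 gave 11, and leaving out 1 library gave 0 to 5. Of the 107 listed pathway genes, those called lower were 4 in DESeq2, 5 in DESeq2 on edgeR's genes and 3 without praliciguat replicates 3 and 4. The shares of all genes called lower in these settings were 0.809%, 0.867% and 0.571%, in that order. Without praliciguat replicate 3, which alone was not below all placebo libraries for Nrp1 and Nrp2, 5 members had no overlap. On the lower side this held for 5.9% of all genes. With any other 1 library left out, the number of members was 3, and the share over all genes was not counted there. Of 230 alternative fold changes of members, 14 turned sign. Vegfb was 0.076 and Kdr 0.010 without praliciguat replicates 3 and 4; Flt1 was 0.17 there and 0.15 within the lower run; Vegfc was 0.27 within the upper run. Vegfd was -0.0054 with effective lengths as offset, -0.064 and -0.055 on log2 of TPM plus 0.1 and plus 1, -0.0028 with upper quartile scaling, -0.059 within the lower run, and -0.091 to 0.10 with 1 library left out. Within the lower and the upper run, the difference in ligand share was -0.206 and 0.260 percentage points for Vegfc and -0.779 and -0.110 for Pgf, in the Flt1 to Kdr ratio 0.197 and -0.121, in the Vegfa to Kdr ratio -1.38 and 1.80, and in the Nrp1 to Kdr ratio -0.240 and 1.07. With 1 library left out, the difference in the Vegfa to Kdr ratio, 0.207 over all libraries, ran from -0.707 (without praliciguat replicate 3) to 1.201 (without praliciguat replicate 2). The cause was not tested. No paired analysis was possible because the labels give no replicate numbers shared by the groups. Depth limits Vegfc and Pgf most, with 48 and 35 reads in their lowest libraries.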

Other observations

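Other marker lists were read from the same fit. All 5 adipocyte markers, among them Adipoq and Plin1, lay above 0 (median log2 fold change 1.082), with summed levels of 724 to 1887 CPM with praliciguat and 481 to 1288 CPM in placebo. All 5 Schwann cell markers lay below 0 (median -0.51; 94.2 to 208 CPM with praliciguat and 149.9 to 349 CPM in placebo), and so did all 5 red blood cell markers (median -0.23; 162 to 418 CPM with praliciguat and 176 to 436 CPM in placebo). Of 4 satellite cell markers 3 lay below 0 (28.8 to 35.9 CPM with praliciguat and 30.2 to 36.3 CPM in placebo), and 1 of the 4 keratinocyte markers passed the count filter (summed levels 1.49 to 5.44 CPM with praliciguat and 1.40 to 2.63 CPM in placebo). The groups overlapped in each sum, and edgeR and DESeq2 called 0 of these genes.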
